A study of Homo sapiens with 18 samples.

Results

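The genes described here encode the mitochondrial ribosomal proteins, chosen by symbol as MRPL (large subunit) or MRPS (small subunit) followed by a number and, in some, a letter. They numbered 78, of which 49 were MRPL and 29 were MRPS, among 25673, 25540 and 25557 genes listed in the 3 expression tables. Their mRNA levels were measured by RNA-seq in 18 libraries from 2 human triple-negative breast cancer (TNBC) cell lines, in 6 groups of 3. BT-549 cells, which are BRCA1 wild-type, carried a stable PBRM1shRNA or a stable IRF1shRNA, and each of these was set against its own BT-549 group with a control shRNA. MDA-MB-436/tet-MUC1shRNA cells, which carry a BRCA1 mutation and a MUC1 hairpin that doxycycline (DOX) switches on, were treated with DOX at 500 ng/ml or with vehicle (DMSO). Every group was a puromycin-selected population transduced with 1 hairpin, and total RNA was taken from triplicate cultures. The p-values therefore measure the spread between cultures of one cell population. No DOX-treated group with a control hairpin was used here, so effects of DOX and of MUC1 silencing in MDA-MB-436 cells cannot be told apart.

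Mitochondria keep a ribosome of their own, which translates the few mRNAs of the mitochondrial genome into subunits of the respiratory chain and of ATP synthase. Its RNA is made in the mitochondrion, but its proteins are encoded in the nucleus, made in the cytosol and imported. The mRNA levels of these proteins were measured here, and the protein levels were not. Some of these proteins have counterparts in bacterial ribosomes and others are found in mitochondria only, and the large and the small subunit are assembled separately and join on an mRNA.

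Symbol and place in the ribosome do not always match. By their known roles, 45 of the 78 members have a bacterial homologue and 31 are specific to mitochondria. MRPL55 was left unassigned, and MRPS36 is now known as a subunit of the alpha-ketoglutarate dehydrogenase complex of the citric acid cycle. MRPS30 and MRPS18A carry small subunit names but lie in the large subunit in structures of the ribosome. Groups by symbol are used unless stated.

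Levels are given as rescaled TPM, that is, the deposited TPM (a transcript abundance corrected for length) scaled again to a total of 1000000 over genes other than short noncoding RNAs. Short noncoding RNAs held 75.6% to 79.3% of deposited TPM in libraries of the PBRM1 comparison, 84.8% to 88.5% in those of the IRF1 comparison and 12.1% to 15.2% in those of the MUC1 comparison. Genes entered a test with 1 rescaled TPM or more in 3 or more of its 6 libraries, and a gene is said to have risen or fallen only where limma gave an adjusted p under 0.05. In bulk libraries fewer cells of a type and less RNA per cell cannot be told apart. PBRM1 averaged 12.4 ± 0.807 rescaled TPM in PBRM1shRNA cells and 53.1 ± 1.20 in their controls (SD, n = 3 each). IRF1 averaged 9.55 ± 0.630 in IRF1shRNA cells and 35.7 ± 1.57 in their controls, and MUC1 averaged 3.47 ± 0.622 with DOX and 6.49 ± 0.817 with vehicle. Libraries of one group correlated at 0.993 to 0.998 over tested genes. ESR1 and PGR, receptors that TNBC lacks, stayed at or below 0.121 rescaled TPM in every library, ERBB2 lay at 13.5 to 26.9, and VIM, a mesenchymal marker, at 1131 to 2405. The highest of 8 leukocyte, erythroid and endothelial markers reached 0.642, and 0 of the 8 passed the filter. Of 4 mesenchymal markers 2 rose and 2 fell in PBRM1shRNA cells, 0 rose and 2 fell in IRF1shRNA cells, and 1 rose and 3 fell with DOX, and their part in the results below was not tested.

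Almost all members were expressed in both cell lines. The median level was 69.9 rescaled TPM in the BT-549 controls of PBRM1shRNA, 94.4 in the BT-549 controls of IRF1shRNA and 63.0 in MDA-MB-436 vehicle cells. MRPL51, a protein specific to the mitochondrial large subunit, had the highest mean over the 3 control groups, with group means of 505, 713 and 321. MRPL33 followed with 466, 486 and 154, and MRPL41 with 234, 600 and 65.6. At the other end MRPS25 averaged 14.3, 18.1 and 13.3, MRPS11 averaged 7.66, 11.7 and 16.1, and MRPS24 averaged 0.912, 1.72 and 0.844 in the same 3 control groups. MRPS24, the counterpart of a bacterial protein at the mRNA entry of the small subunit, was the one member that failed the filter in MDA-MB-436. It shares its locus with the annotated readthrough gene URGCP-MRPS24, which averaged 0 rescaled TPM in the silenced and control groups of all 3 comparisons. How reads of such overlapping genes were assigned is not given in the sources used here.

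**Figure D1:**
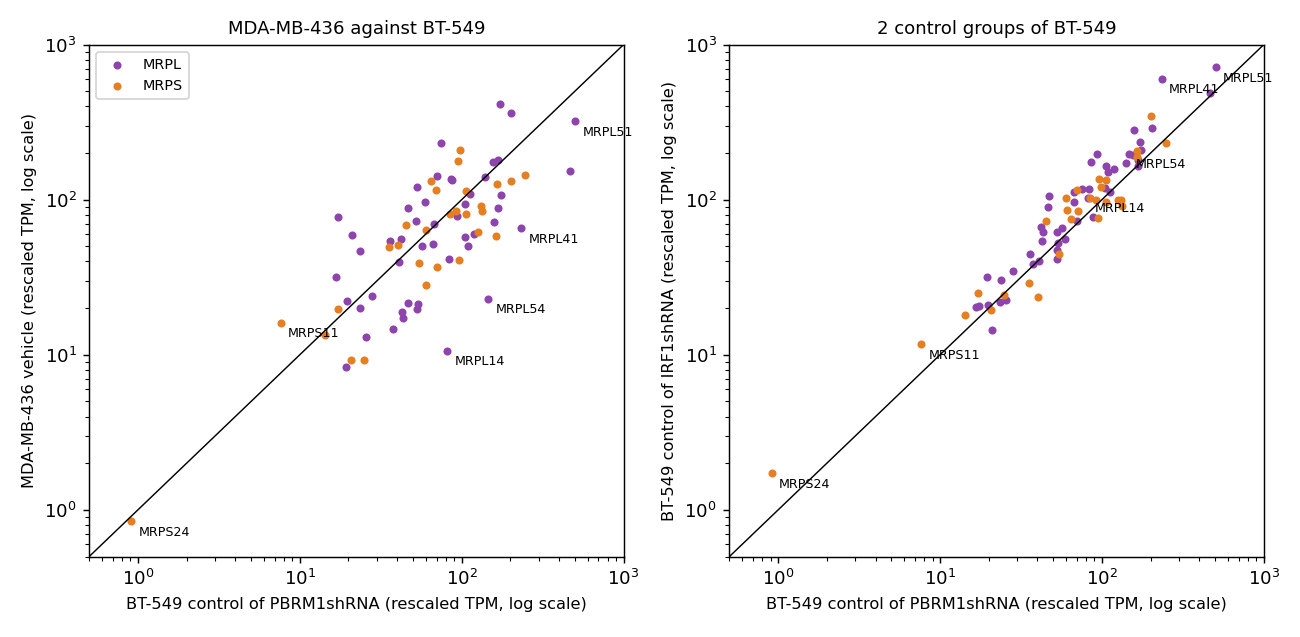
Mean level of each member in control libraries, in rescaled TPM on log axes (n = 3 per group). The left panel sets MDA-MB-436 vehicle cells against the BT-549 controls of PBRM1shRNA, and the right panel sets the BT-549 controls of IRF1shRNA against those of PBRM1shRNA. The diagonal marks equal levels. Points scatter more widely on the left, where MRPL14 and MRPL54 lie far below the line.

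The order of the members was close between the 2 BT-549 control groups (Spearman's rho 0.94 over 78 members) and less close between MDA-MB-436 vehicle cells and either of them (rho 0.70 and 0.65). These are descriptions over genes of tables that were normalized separately. In MDA-MB-436 vehicle cells 20 members lay more than 2 times below both BT-549 control groups, and 2 members, MRPL19 and MRPL30, lay more than 2 times above both. MRPL14, which lies at the contact of the 2 subunits, measured 8.6, 11.4 and 11.9 rescaled TPM in the vehicle libraries, against 82.2, 81.1 and 81.8 in the BT-549 controls of PBRM1shRNA. MRPL54 averaged 23.0 in vehicle cells, against 147 and 198 in the BT-549 control groups. MRPL30 averaged 77.6 in vehicle cells, against 17.3 and 20.5. The cell lines were not compared by a test, and 4 members (MRPL20, MRPL27, MRPL41 and MRPL55) differed more than 2 times between the 2 control groups of BT-549 itself.

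Promoters of the members were searched for short motifs. RefSeq promoters of 300 bases (250 before and 50 after the start of the gene, GRCh38.p14) were matched for 69 of the 78 members. The letters CCGGAAG, a core that ETS factors such as GABP bind, stood on either strand in 29 of 69 member promoters (42.0%), against 10.7% of all 27305 promoters. The YY1 motif, in capitals in MRPL52 below, stood in 13 (18.8%, against 1.28% of all), and the NRF1 motif, in capitals near the 5′ end of MRPL36, in 8 (11.6%, against 6.29%). GABP, YY1 and NRF1 are known as factors of nuclear genes for mitochondrial proteins. The interferon-stimulated response element, to which factors of the IRF family bind, stood in 2 (2.90%, against 3.65%), those of MRPL36 and MRPL50. GGGCGG, an SP1 core, stood in 60.9% (44.6% of all) and CCAAT in 28.99% (35.7% of all). Matches of the ETS, YY1 and NRF1 motifs shared bases in 0 member promoters. The shares are descriptions, and a match is not evidence of binding. The 27305 promoters were not limited to expressed genes.

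The 120 bases before the start are shown for 7 members whose responses differ below, to set side by side promoters with the same motif. MRPL52 (chr14:22829767-22829886, plus strand), MRPL51 (chr12:6493263-6493382, minus), MRPL20 (chr1:1407294-1407413, minus) and MRPL33 (chr2:27771599-27771718, plus) rose in PBRM1shRNA cells. MRPL58 (chr17:75012550-75012669, plus), MRPS22 (chr3:139343874-139343993, plus) and MRPL36 (chr5:1799838-1799957, minus) fell there. The fall of MRPL36 there did not hold under every way of scaling the libraries, and those of MRPL58 and MRPS22 did. Sequences run 5′ to 3′ on the strand of the gene and end at the last base before the RefSeq start. By the GENCODE 29 positions used for lengths and overlaps, the stretches of MRPL51, MRPS22 and MRPL36 lie within the annotated gene. Capitals mark matches to the ETS, YY1 or NRF1 letters on either strand (YY1 in MRPL52, YY1 and NRF1 in MRPL36, ETS in the others). The promoter of MRPL52 also holds an ETS match, outside the 120 bases shown.
MRPL52: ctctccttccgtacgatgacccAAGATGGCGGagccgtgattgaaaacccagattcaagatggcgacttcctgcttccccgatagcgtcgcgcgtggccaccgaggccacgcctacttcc
MRPL51: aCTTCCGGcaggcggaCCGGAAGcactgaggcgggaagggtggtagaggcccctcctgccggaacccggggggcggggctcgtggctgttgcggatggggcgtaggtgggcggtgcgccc
MRPL20: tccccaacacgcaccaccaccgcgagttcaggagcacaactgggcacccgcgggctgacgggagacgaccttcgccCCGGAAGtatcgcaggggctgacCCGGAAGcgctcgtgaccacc
MRPL33: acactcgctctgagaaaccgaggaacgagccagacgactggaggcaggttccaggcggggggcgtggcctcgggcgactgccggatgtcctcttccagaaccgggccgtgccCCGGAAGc
MRPL58: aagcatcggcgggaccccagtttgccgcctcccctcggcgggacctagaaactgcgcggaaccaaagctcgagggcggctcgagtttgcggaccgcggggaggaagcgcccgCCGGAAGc
MRPS22: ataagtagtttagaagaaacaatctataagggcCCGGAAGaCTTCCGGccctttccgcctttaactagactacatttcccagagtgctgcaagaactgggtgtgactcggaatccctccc
MRPL36: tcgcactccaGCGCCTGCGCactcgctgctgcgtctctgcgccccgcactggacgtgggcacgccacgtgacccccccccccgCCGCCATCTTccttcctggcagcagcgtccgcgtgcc
The last of the ETS letters was base 2 before the start in both MRPL33, which rose in PBRM1shRNA cells, and MRPL58, which fell. Among all tested genes 21.9% were higher and 51.0% lower at an adjusted p under 0.05 by limma in PBRM1shRNA cells, 35.4% and 29.4% in IRF1shRNA cells, and 26.2% and 25.1% with DOX. Among the 29 members with an ETS match, 6 rose and 8 fell in PBRM1shRNA cells, 16 rose and 3 fell in IRF1shRNA cells, and 12 rose and 0 fell with DOX. Among the tested members with a promoter but no ETS match (40, 40 and 39), 16 rose and 12 fell, 17 rose and 5 fell, and 22 rose and 5 fell in the same order.

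The first comparison asked how loss of PBRM1, the subunit that directs the PBAF chromatin remodeling complex, bears on these genes. In PBRM1shRNA cells they moved both ways, by small amounts. Of 78 tested members 24 rose, 23 fell and 31 did not pass the test, with log2 folds between -0.45 and 0.49. That is 30.8% higher and 29.5% lower, beside 21.9% higher and 51.0% lower among all 12689 tested genes. The median log2 fold was 0.05 for MRPL and -0.01 for MRPS, against -0.17 for all tested genes, and 61 of the 78 members lay above the median of all genes. These values depend on the scale. Median-ratio scaling raised the median of all genes by 0.14 and left 44 members higher and 9 lower, and quantile scaling raised it by 0.23 and left 44 higher and 11 lower. Of called genes at large 30.0% were higher on the main scale, 47.6% with median-ratio scaling and 57.4% with quantile scaling. Relative to the median of all genes, MRPL members had a median of 0.22 and MRPS members one of 0.16 on the main scale, 0.23 and 0.17 with median-ratio scaling, and 0.09 and 0.05 with quantile scaling. All 24 members that rose did so under the 3 scalings, and 7 of the 23 that fell did.

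Both subunits took part in both directions. Of 49 MRPL members 17 rose and 17 fell (34.7% each), and of 29 MRPS members 7 rose and 6 fell (24.1% and 20.7%). Among all tested genes 21.9% were higher and 51.0% lower. Members with a bacterial homologue counted 18 higher and 9 lower of 45 (median log2 fold 0.08), and members specific to mitochondria counted 6 higher and 13 lower of 31 (median -0.06). Among MRPS members with a bacterial homologue 6 of 16 rose and 0 fell by limma (folds of both classes move with the scale as above), and among those specific to mitochondria 1 of 12 rose and 6 fell. Of the 6 that fell, MRPS18A and MRPS30 lie in the large subunit by structure, and only MRPS22, MRPS30 and MRPS35 fell under the 3 scalings. No test was made of these classes.

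The members with the largest rises were MRPL34, MRPL51, MRPL52, MRPL13 and MRPS14. MRPL34, the counterpart of a small bacterial large subunit protein, measured 97.8, 90.8 and 95.4 rescaled TPM in PBRM1shRNA cells, against 67.4, 66.2 and 67.4 in control cells (log2 fold 0.49 ± 0.04 SE, adjusted p = 3.02e-07 by limma). MRPL51 measured 690, 706 and 692, against 518, 483 and 514 (0.46 ± 0.04, adjusted p = 2.40e-07). MRPL52, another protein specific to the mitochondrial large subunit, measured 61.6, 54.1 and 58.4, against 44.1, 43.2 and 41.1 (0.43 ± 0.05). In all 3 the lowest PBRM1shRNA library stood above the highest control library. MRPL13 averaged 208 ± 13.3 in PBRM1shRNA cells and 156 ± 6.63 in control cells (0.42 ± 0.05), and MRPS14 averaged 23.2 ± 1.55 and 17.2 ± 0.443 (0.41 ± 0.06). On the opposite strand MRPL51 overlaps NCAPD2, which also rose (log2 fold 0.86), and MRPL34 overlaps ABHD8, which rose too (0.66). MRPS14 overlaps CACYBP on the opposite strand, which rose as well (0.46). MRPL13 overlaps MTBP on the opposite strand, which did not pass the test (-0.07). Whether strand was used in counting is not stated, and the part of these neighbours in the members' values was not tested.

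The largest falls were those of MRPL58, MRPL10, MRPL49, MRPS30 and MRPS22. MRPL58, a large subunit protein that also releases peptides from stalled ribosomes, measured 40.7, 39.6 and 43.6 rescaled TPM in PBRM1shRNA cells, against 56.6, 54.8 and 59.1 in control cells (log2 fold -0.45 ± 0.05 SE, adjusted p = 3.44e-06 by limma). MRPL10, which anchors the stalk where translation factors dock, measured 18.01, 17.4 and 17.0, against 22.9, 24.1 and 23.6 (-0.41 ± 0.05, adjusted p = 1.23e-05). MRPS30 measured 75.5, 70.3 and 68.4, against 94.5, 90.9 and 91.0 (-0.36 ± 0.04, adjusted p = 1.07e-05). The groups did not overlap in any of these, nor in MRPL49 (53.0 ± 0.439 and 69.9 ± 1.94, log2 fold -0.39) or MRPS22 (83.4 ± 4.09 and 106 ± 3.03, log2 fold -0.34). All 5 fell under every scaling tried, TPM as deposited included. MRPL49 overlaps FAU, a far more abundant gene on the opposite strand (1427 and 1132 in PBRM1shRNA and control cells) that rose (0.33). MRPS22 overlaps COPB2 on the opposite strand, which averaged 230 and 257 in the same cells and fell (-0.16). Groups did not overlap in 52 of 78 members, a share of 66.7% beside 75.1% of all tested genes.

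**Figure D2:**
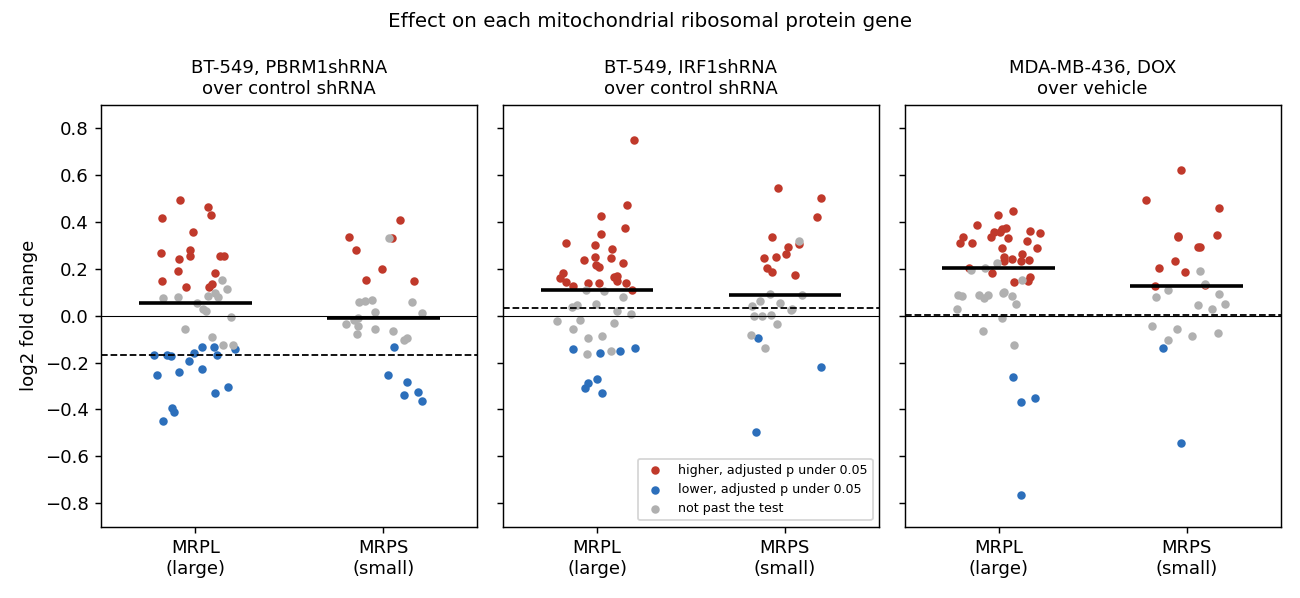
Log2 fold change of every tested member by subunit symbol in each comparison, silenced or DOX over its control. Each point is 1 gene, red where it rose and blue where it fell at an adjusted p under 0.05 by limma. Thick bars are the medians of MRPL and of MRPS, and the dashed line is the median of all tested genes. In the PBRM1 panel both medians lie near 0 and above the dashed line at -0.17, and in the MUC1 panel they lie at 0.21 and 0.13.

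The summed level of the 78 members was slightly higher in PBRM1shRNA cells. It took 0.778%, 0.756% and 0.771% of rescaled TPM there, against 0.732%, 0.713% and 0.729% in control cells, with no overlap. MRPL members summed to 0.522% ± 0.00854 in PBRM1shRNA cells and 0.481% ± 0.00800 in control cells (SD, n = 3 each), while MRPS members summed to 0.246% ± 0.00316 and 0.243% ± 0.00264, and the MRPS groups overlapped. The ratio of the mean MRPL level to the mean MRPS level, which does not depend on the scaling of a library, was 1.26, 1.25 and 1.25 in PBRM1shRNA cells and 1.17, 1.16 and 1.18 in control cells. Abundant members set this ratio. Without MRPL51, a choice made after seeing the data, the difference between the groups was 0.0410, against 0.0848 with it, and with geometric means, which weigh each gene alike, it was 0.00835 and the groups overlapped. By place in the structure in place of the symbol the difference was 0.0530.

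**Figure D3:**
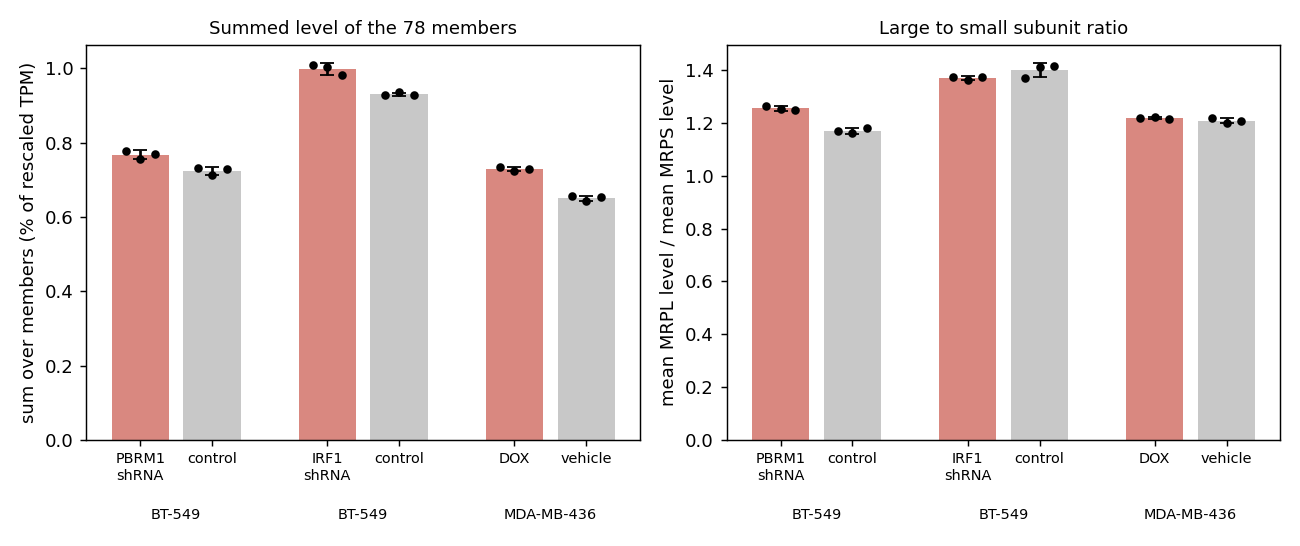
Summed level of the 78 members as a percentage of rescaled TPM (left) and ratio of the mean MRPL to the mean MRPS level (right). Bars are group means with the SD as error bars, points are libraries (n = 3 per group), and each silenced or DOX group stands left of its control. The summed level separates the groups in all 3 comparisons, and the ratio in the PBRM1 comparison only, with 1.25 to 1.26 against 1.16 to 1.18.

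The second comparison concerned IRF1, a transcription factor of the interferon response. In IRF1shRNA cells rises outnumbered falls. Of 78 tested members 37 rose, 11 fell and 30 did not pass the test. That is 47.4% higher and 14.1% lower, beside 35.4% higher and 29.4% lower among all 12707 tested genes. The median log2 fold was 0.11 for MRPL and 0.09 for MRPS, against 0.03 for all tested genes. Of MRPL members 25 of 49 rose and 8 fell, and of MRPS members 12 of 29 rose and 3 fell. Members with a bacterial homologue counted 20 higher and 8 lower of 45, and those specific to mitochondria 16 higher and 2 lower of 31. With TPM as deposited, where the short noncoding RNAs varied between libraries, 2 members rose and 4 fell and the median over members was -0.01. With median-ratio scaling 29 rose and 13 fell, and 49.4% of called genes at large were higher, against 54.6% on the main scale and 23.7% with TPM as deposited.

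MRPL52 had the largest rise of all members in this comparison. It measured 92.6, 91.8 and 90.5 rescaled TPM in IRF1shRNA cells, against 53.4, 56.0 and 53.1 in control cells (log2 fold 0.75 ± 0.04 SE, adjusted p = 3.39e-08 by limma). MRPS6, a small subunit protein with a bacterial counterpart, measured 135, 138 and 131, against 93.1, 92.1 and 89.6 (0.55 ± 0.04, adjusted p = 3.72e-07). These were the 2 members that rose under every scaling, TPM as deposited included. MRPS6 shares its locus and strand with SLC5A3, whose log2 fold was -0.12 (adjusted p = 0.171 by limma). MRPS27, a small subunit protein with pentatricopeptide repeats, averaged 142 ± 6.11 in IRF1shRNA cells and 99.9 ± 3.98 in control cells (0.50 ± 0.05). It overlaps PTCD2 on the opposite strand, which rose as well (0.26). MRPL10, which fell in PBRM1shRNA cells, measured 29.6, 31.5 and 31.0, against 20.6, 22.4 and 22.6 (0.47 ± 0.05, adjusted p = 9.57e-06 by limma). MRPL48 averaged 56.2 ± 3.50 and 41.6 ± 1.65 (0.43 ± 0.05).

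The falls in IRF1shRNA cells were led by MRPS30, with 74.5, 68.2 and 69.3 rescaled TPM against 104.5, 99.5 and 96.3 in control cells (log2 fold -0.50 ± 0.05 SE, adjusted p = 3.43e-06 by limma). MRPL28 averaged 93.6 ± 7.49 in IRF1shRNA cells and 118 ± 4.24 in control cells (-0.33 ± 0.06). MRPL44, which has a fold like that of ribonuclease III, averaged 38.3 ± 0.317 and 47.6 ± 1.09 (-0.31 ± 0.04). MRPL36, a small zinc-binding protein in its bacterial form, averaged 230 ± 15.4 and 281 ± 7.57 (-0.29 ± 0.05). These 4 fell under every scaling. MRPL30 averaged 16.9 ± 0.612 and 20.5 ± 1.005 (-0.27 ± 0.06, adjusted p = 0.00104 by limma). Groups did not overlap in 52 of 78 members, or 66.7%, beside 68.5% of all tested genes.

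The members together took 1.01%, 1.01% and 0.981% of rescaled TPM in IRF1shRNA cells, against 0.929%, 0.936% and 0.928% in control cells, with no overlap. Both subunits had the higher sum in IRF1shRNA cells, with MRPL at 0.697% ± 0.0101 and 0.654% ± 0.00552 and MRPS at 0.301% ± 0.00501 and 0.277% ± 0.00338 (IRF1shRNA and control, SD, n = 3 each). The large to small ratio was 1.38, 1.36 and 1.37 in IRF1shRNA cells and 1.37, 1.41 and 1.42 in control cells, and the groups overlapped. Assigned by structure, which moves MRPS30 to the large subunit, the ratio was 1.28 ± 0.0109 and 1.34 ± 0.0224 (IRF1shRNA and control), without overlap. Without MRPL51 it was 1.24 and 1.27, also without overlap.

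The third comparison concerned MUC1, a transmembrane mucin whose C-terminal subunit acts in the nucleus of TNBC cells. With DOX in MDA-MB-436 cells the shift was mainly upward. Of 77 tested members 41 rose, 6 fell and 30 did not pass the test. That is 53.2% higher and 7.79% lower, beside 26.2% higher and 25.1% lower among all 13387 tested genes. The median log2 fold was 0.21 for MRPL and 0.13 for MRPS, against 0.00 for all tested genes, and 63 of the 77 had a fold above 0. Of MRPL members 28 of 49 rose and 4 fell, and of MRPS members 13 of 28 rose and 2 fell. Members with a bacterial homologue counted 26 higher and 4 lower of 44, and those specific to mitochondria 14 higher and 2 lower of 31. Under all 4 scalings 38 members rose and 5 fell. With each gene's own variance and no prior, 28 rose and 3 fell.

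MRPS36 had the largest rise, to 16.3, 14.4 and 13.8 rescaled TPM with DOX, against 8.3, 10.2 and 9.5 with vehicle (log2 fold 0.62 ± 0.09 SE, adjusted p = 0.000642 by limma). It is the member that serves the citric acid cycle and not the ribosome. MRPS33 measured 315, 286 and 291 with DOX, against 204, 208 and 219 with vehicle (0.50 ± 0.04, adjusted p = 3.36e-05), and MRPS21 measured 180, 166 and 179, against 124, 129 and 127 (0.46 ± 0.04, adjusted p = 3.11e-05). MRPL52 measured 29.4, 25.8 and 23.1, against 20.2, 17.1 and 19.2 (0.45 ± 0.09, adjusted p = 0.00401), and MRPL33, whose level is among the highest, averaged 207 ± 7.40 and 154 ± 11.02 (0.43 ± 0.05). All 5 were apart from vehicle in every library. MRPL33 overlaps BABAM2 on its own strand, which rose as well (0.31). It also overlaps RBKS on the opposite strand, which averaged 4.81 with DOX and 1.72 with vehicle and rose (1.09).

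Against this trend 6 members fell, and the fall of MRPL42 was the largest change of any member in any comparison. MRPL42, a protein specific to the mitochondrial large subunit, measured 57.6, 57.4 and 53.6 rescaled TPM with DOX, against 96.7, 101 and 91.5 with vehicle (log2 fold -0.77 ± 0.05 SE, adjusted p = 4.95e-06 by limma). MRPS35, a protein specific to the small subunit of mitochondria, measured 116, 124 and 122, against 173, 187 and 169 (-0.54 ± 0.04, adjusted p = 2.38e-05). MRPL32, which the m-AAA protease must cut before it can join the ribosome, averaged 46.0 ± 3.42 with DOX and 59.7 ± 5.49 with vehicle (-0.37 ± 0.08), and MRPL17 averaged 16.5 ± 2.25 and 21.2 ± 0.486 (-0.35 ± 0.09). These 4 groups did not overlap. The remaining falls were those of MRPL23 (-0.26, with overlapping groups) and MRPS9 (-0.14, adjusted p = 0.0465 by limma). Both calls were lost with the replicate block, and that of MRPS9 also with TPM as deposited. Groups did not overlap in 51 of 77 members, or 66.2%, beside 59.7% of all tested genes.

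**Figure D4:**
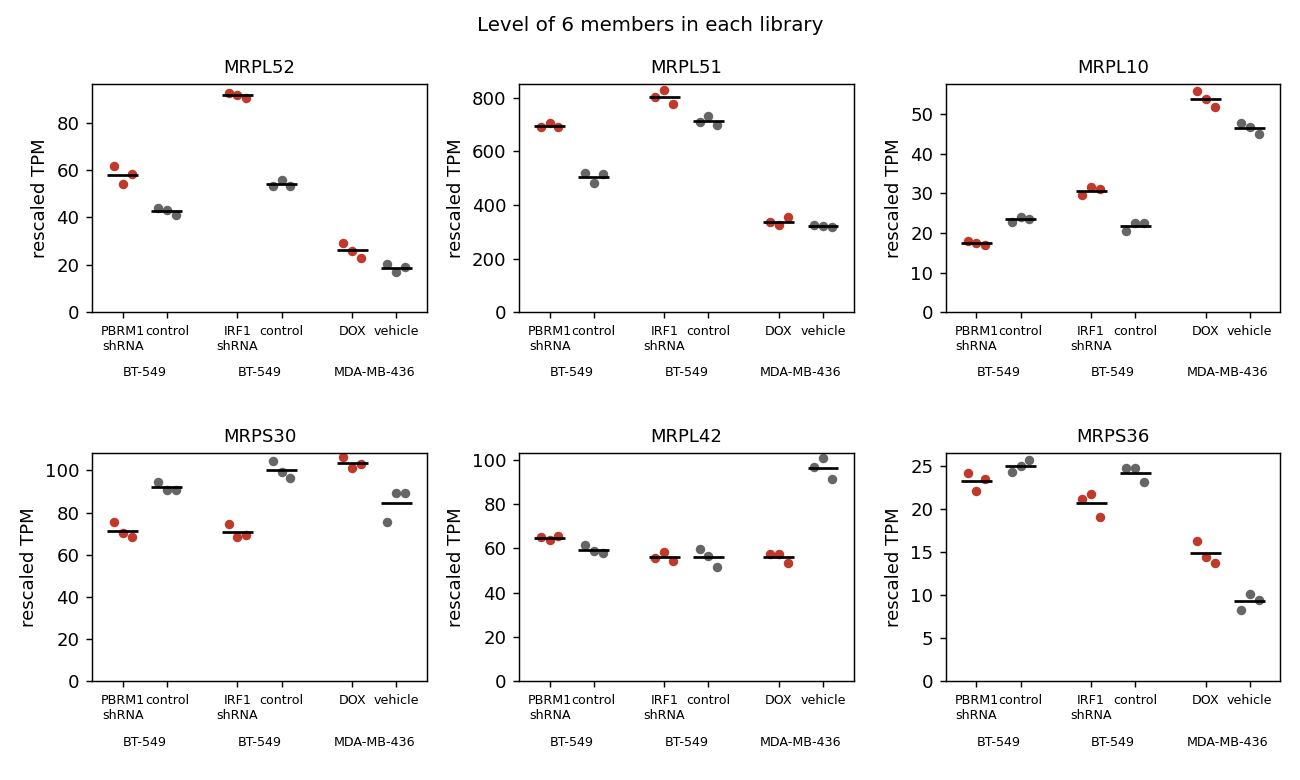
Level of 6 members in each library in rescaled TPM, on linear axes that start at 0. Points are libraries and lines are group means (n = 3), with the silenced or DOX group (red) left of its control (grey). MRPL52 stands above its control in all 3 comparisons, MRPL10 below it in the PBRM1 comparison and above it in the others, and MRPL42 lies at 53.6 to 57.6 with DOX against 91.5 to 101 with vehicle.

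The members summed to 0.735%, 0.725% and 0.729% of rescaled TPM with DOX, against 0.655%, 0.643% and 0.654% with vehicle. MRPL members summed to 0.491% ± 0.00336 with DOX and 0.437% ± 0.00556 with vehicle, and MRPS members to 0.239% ± 0.00216 and 0.214% ± 0.00145 (SD, n = 3 each), so that both subunits had a higher sum by 1.12 and 1.11 times. The large to small ratio was 1.22, 1.22 and 1.22 with DOX and 1.22, 1.20 and 1.21 with vehicle, and the groups overlapped. Assigned by structure it was 1.15 ± 0.00512 with DOX and 1.14 ± 0.000436 with vehicle, without overlap.

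Across the 3 comparisons 63 of 77 members rose in at least 1 (81.8%) and 31 fell in at least 1 (40.3%). Among the 11537 genes tested in all 3 these shares were 61.9% and 71.0%. The comparisons share no libraries. Members past the test in all 3 numbered 23 of 77 (29.9%, beside 26.9% of all genes), and 8 passed in none: MRPL3, MRPL43, MRPS5, MRPS18C, MRPS23, MRPS24, MRPS26 and MRPS34. MRPS24 was not tested in the MUC1 comparison, and the other 7 are 9.09% of 77, beside 5.51% of all genes. With the replicate block MRPS23 passed in the PBRM1 comparison, whose libraries the numbers pair, and MRPS24 in the IRF1 comparison. Those higher in all 3 numbered 9 (11.7%, beside 3.12% of all genes): MRPL11 and MRPL14, MRPL20, MRPL24, MRPL33 and MRPL52 of the large subunit and MRPS15, MRPS28 and MRPS33 of the small. Of these, 7 did so under rescaled, median-ratio and quantile scaling (MRPL14 and MRPS28 did not), and MRPL52 alone also with TPM as deposited. No member fell in all 3, beside 5.18% of all genes. MRPL11, at the base of the factor-binding stalk, had log2 folds of 0.25, 0.31 and 0.29 in the PBRM1, IRF1 and MUC1 comparisons, and MRPL20 had 0.26, 0.29 and 0.18. MRPL24 had 0.19, 0.25 and 0.34, MRPS15 had 0.15, 0.18 and 0.13, and MRPS33 had 0.33, 0.34 and 0.50. The folds of the 77 members correlated little between comparisons, with Pearson's r of 0.24 for PBRM1 with IRF1, 0.18 for PBRM1 with MUC1 and -0.04 for IRF1 with MUC1, a description over genes with no test.

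**Figure D5:**
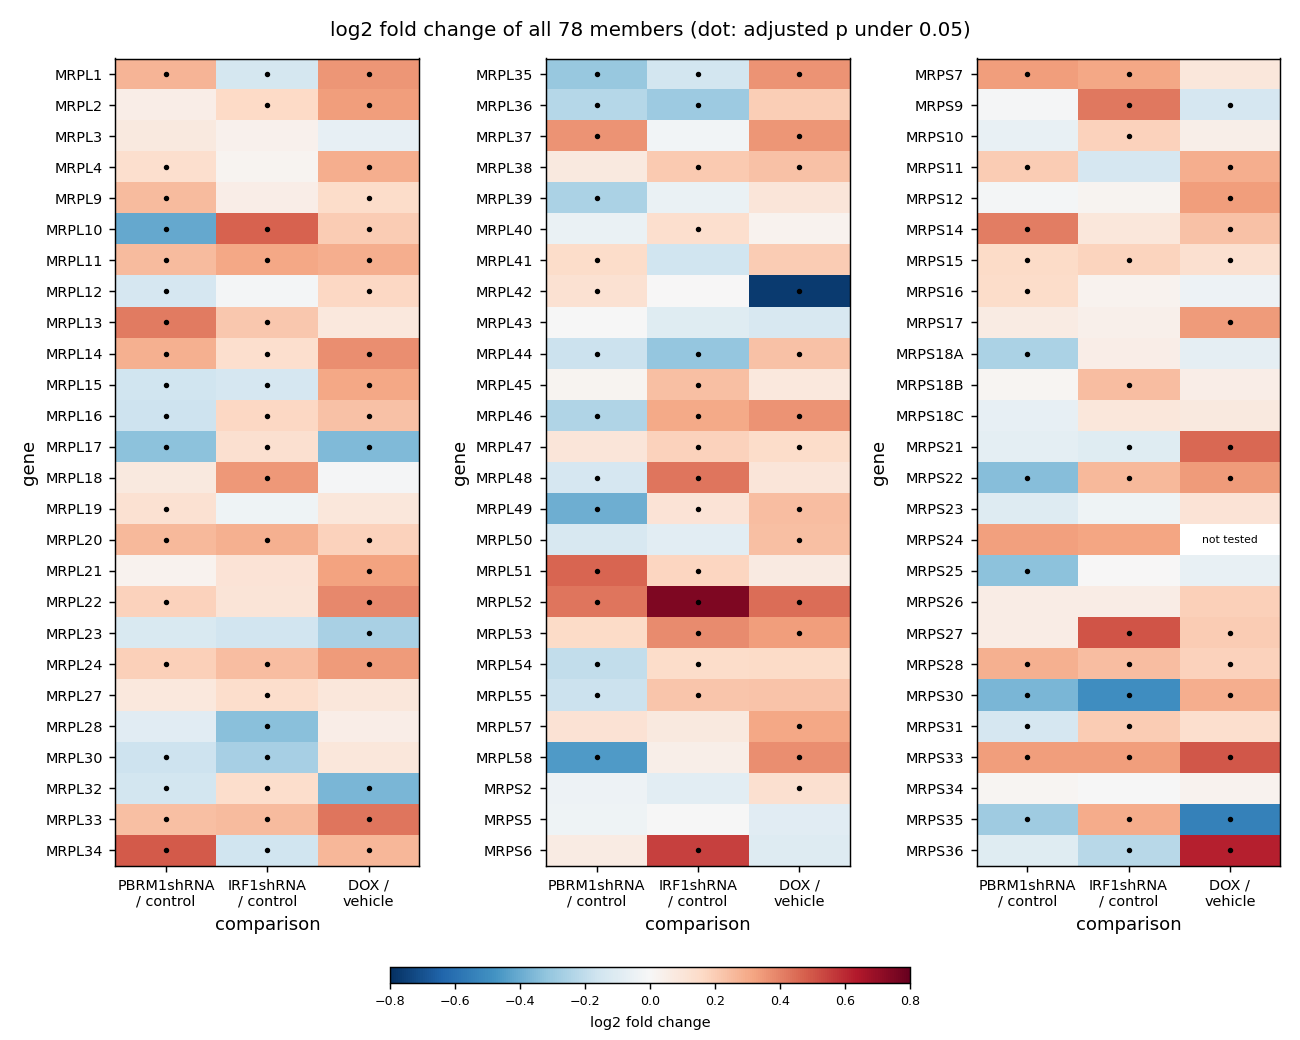
Log2 fold change of each of the 78 members (rows) in the 3 comparisons (columns), silenced or DOX over its control, on a scale running between -0.8 (blue) and 0.8 (red). A dot marks an adjusted p under 0.05 by limma, and MRPS24 was not tested in the MUC1 comparison. MRPL52 is red with a dot in all 3 columns, while MRPL10, MRPS22, MRPS30 and MRPS35 change colour between columns.

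A rise in one comparison and a fall in another was seen for 24 of 77 members (31.2%), beside 38.4% of all genes tested in the 3 comparisons. Within BT-549 cells 12 members rose in both comparisons (15.6%, beside 9.27%), 6 fell in both (7.79%, beside 16.9%) and 14 moved in opposite directions (18.2%, beside 22.1%). Of the 14, 12 were lower in PBRM1shRNA cells and higher in IRF1shRNA cells (15.6%, beside 15.8%). Of those 12, MRPL10, MRPS22 and MRPS35 did so under the 3 scalings. In a model over the 18 libraries the effects differed between comparisons at an adjusted p under 0.05 by limma for 32 of 77 members (PBRM1 against IRF1), 40 (PBRM1 against MUC1) and 38 (IRF1 against MUC1), beside 68.2%, 67.0% and 60.0% of all 11537 genes tested. MRPL10 had log2 folds of -0.41, 0.47 and 0.21 in the PBRM1, IRF1 and MUC1 comparisons. Its effect in PBRM1shRNA cells minus that in IRF1shRNA cells was -0.88 on the log2 scale (adjusted p = 8.83e-10 by limma). MRPS22, a small subunit protein specific to mitochondria, had -0.34, 0.26 and 0.34, and MRPS35 had -0.28, 0.29 and -0.54. MRPL58 had -0.45, 0.05 and 0.37, of which the second did not pass the test.

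MRPS30 fell in both BT-549 comparisons and rose with DOX, to 107, 101 and 103 rescaled TPM against 75.5, 89.3 and 89.2 with vehicle (log2 fold 0.29 ± 0.06 SE, adjusted p = 0.00501 by limma). MRPL15, MRPL35 and MRPL44 of the large subunit followed the same pattern, lower in both BT-549 comparisons and higher with DOX. MRPL34 and MRPL1 rose in the PBRM1 and MUC1 comparisons (MRPL34 0.49 and 0.26, MRPL1 0.27 and 0.35) and fell in the IRF1 comparison (-0.16 and -0.14). MRPL16, MRPL46 and MRPL49 joined MRPL10 and MRPS22 as lower in PBRM1shRNA cells and higher in the other comparisons, and MRPL17 and MRPL32 joined MRPS35 as higher in IRF1shRNA cells only. The falls of MRPL15, MRPL16, MRPL32, MRPL44 and MRPL46 in PBRM1shRNA cells did not pass the test with median-ratio scaling, nor that of MRPL35 with quantile scaling. The rises of MRPL17 and MRPL49 in IRF1shRNA cells did not hold under rescaled, median-ratio and quantile scaling alike. That of MRPL49 was also lost with the replicate block.

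The 3 MRPS18 paralogues, of which MRPS18A belongs to the large subunit and the others to the small, did not move together. MRPS18A fell in PBRM1shRNA cells (log2 fold -0.25, adjusted p = 0.00449 by limma), a call that no other scaling kept. MRPS18B rose in IRF1shRNA cells (0.25), where it averaged 23.2 ± 0.671 and 19.4 ± 0.457 rescaled TPM in IRF1shRNA and control cells. MRPS18C passed no test, with folds of -0.06, 0.09 and 0.08. MRPS36 had folds of -0.10, -0.22 and 0.62, of which the first did not pass the test.

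Other genes of mitochondrial translation were read beside the members. Their counts stand beside the shares of all tested genes, which were 21.9% higher and 51.0% lower in PBRM1shRNA cells, 35.4% and 29.4% in IRF1shRNA cells, and 26.2% and 25.1% with DOX. Of 6 ribosome subunits without an MRP symbol 4 rose and 0 fell in PBRM1shRNA cells, 1 rose and 1 fell in IRF1shRNA cells, and 5 rose and 0 fell with DOX. GADD45GIP1, one of these 6, averaged 184 ± 5.36 rescaled TPM in PBRM1shRNA cells and 129 ± 6.13 in control cells (log2 fold 0.51 ± 0.04 SE). Of 27 genes for ribosome assembly and rRNA modification 7 rose and 12 fell in PBRM1shRNA cells (25.9% and 44.4%), 10 rose and 2 fell in IRF1shRNA cells (37.0% and 7.41%), and 7 rose and 3 fell with DOX (25.9% and 11.1%). MALSU1, an assembly factor that keeps the large subunit from joining too early, averaged 194 ± 11.7 in PBRM1shRNA cells and 130 ± 5.28 in control cells (0.57 ± 0.05), and MRM1, an rRNA methyltransferase, averaged 1.496 ± 0.316 and 2.90 ± 0.252 (-0.65 ± 0.11). In IRF1shRNA cells SPG7, a subunit of the protease that cuts MRPL32, averaged 41.8 ± 1.76 and 25.5 ± 0.860 in control cells (0.69 ± 0.05), and YBEY, which acts in small subunit assembly, averaged 19.4 ± 0.871 and 12.3 ± 0.288 (0.61 ± 0.05). AFG3L2, another subunit of the protease that cuts MRPL32, fell there, averaging 51.3 ± 3.14 and 56.6 ± 0.957 in control cells (-0.14 ± 0.05, adjusted p = 0.0276 by limma).

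Of 13 translation factors and mRNA stability genes 1 rose and 5 fell in PBRM1shRNA cells (7.69% and 38.5%, beside 21.9% and 51.0% of all tested genes), 6 rose and 1 fell in IRF1shRNA cells (46.2% and 7.69%, beside 35.4% and 29.4%), and 4 rose and 3 fell with DOX (30.8% and 23.1%, beside 26.2% and 25.1%). GFM2, which recycles ribosomes after termination, rose in IRF1shRNA cells (log2 fold 0.53). Of 6 genes of mitochondrial transcription and replication 1 rose and 2 fell, 3 rose and 2 fell, and 1 rose and 0 fell in the same order. TWNK, the helicase of mitochondrial DNA, fell in PBRM1shRNA cells (-0.68). Of 82 tested proteins of the cytosolic ribosome 65 rose and 2 fell in PBRM1shRNA cells (median log2 fold 0.26), 63 rose and 1 fell in IRF1shRNA cells (0.21), and 9 rose and 21 fell with DOX (-0.04). The mitochondrial and cytosolic lists were not compared by a test.

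Transcript length moved with the fold in part of the data. The members are short, with a median annotated length of 1137 bases against 2587 for genes tested in the PBRM1 comparison. With genes split into 5 equal classes by length, the shortest class, up to 1531 bases, had a median log2 fold of -0.06 in that comparison and the longest one of -0.19, and 56 of 78 members lay in the shortest class. In the MUC1 comparison the same medians were 0.06 and -0.05, and in the IRF1 comparison 0.03 and 0.03. Within the members length and fold had Spearman's rho of -0.10, -0.16 and -0.07 in the PBRM1, IRF1 and MUC1 comparisons. The part of length in the members' medians was not tested.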

How the data were processed

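Total RNA was turned into libraries with TruSeq Stranded mRNA, a kit that keeps polyadenylated RNA. Per the submitters' processing notes, STAR, GRCh38 and DESeq2 were used, with versions not stated. Which annotation and counting program lie behind TPM is not stated. The authors deposited 3 TPM tables keyed by gene symbol, each column summing to 1000000 with short noncoding RNAs included. TPM keeps no depth, so depth is unknown and counting intervals cannot be given. The authors also deposited DESeq2 results, which hold their own folds and p-values and were not used. The 3 control columns of the PBRM1 table match no single label and were assigned to their group only, as a, b and c.

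Short noncoding RNAs were recognised by symbol (small nuclear, nucleolar, Cajal body, Y, vault and 7SK or 7SL RNAs, microRNAs and the like), removed, and the rest scaled to 1000000. Genes with at least 1 in at least 3 of 6 libraries were compared within each table on log2(value + 1) with limma 3.58.1 in R 4.3.3 (eBayes with trend, two-sided, Benjamini-Hochberg over all tested genes). Folds on this scale understate changes of low genes. Differences between effects came from 1 model over 18 libraries with 6 group means. The code was tested on simulated data. In the PBRM1 table the numbers in the column headers pair the samples: same-numbered libraries deviated together from their group means (r = 0.279, 0.158 and 0.155), while what the number stands for is not stated. Alternatives were 3 other scalings, a pseudocount of 0.1, no filter, a mean of at least 5, a replicate block, other variance priors and leaving out each library.

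The members and lists were chosen with earlier results of these data known. Named members are up to 5 with the largest rise and fall per comparison past the test without overlap, the 3 with the highest and lowest control levels, those past the test in all 3 comparisons, the MRPS18 paralogues, MRPS30 and MRPS36, and in the pathway lists those past the test with an absolute log2 fold above 0.5. MRPL14, MRPL19, MRPL23, MRPL27, MRPL30, MRPL54, MRPL55, MRPS5 and others given by count or in the account of levels were named after their values were seen. AFG3L2 was likewise named after its values were seen, beside SPG7. No column of per-sample values was left unmapped. Gene positions, lengths and overlaps are from GENCODE 29 and promoters from RefSeq.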

Additional observations from a re-analysis of the deposited data

Results flagged for a closer look

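The following named members passed the test in opposite directions in 2 comparisons, and the difference between their effects was itself past the test by limma and larger than 0.5 on the log2 scale. Differences involving PBRM1 move with the scale, since other scalings raised the median of all genes in that comparison by 0.12 to 0.23. Those involving IRF1 move too, since TPM as deposited shifted the median of all genes there by -0.096. Of the IRF1 calls behind these differences, only those of MRPS30 and MRPL44 held under all 4 scalings. For PBRM1 minus IRF1 the difference was -0.88 for MRPL10, -0.60 for MRPS22, -0.58 for MRPS35, -0.56 for MRPL48, -0.54 for MRPL46, -0.50 for MRPL49 and 0.65 for MRPL34. For PBRM1 minus MUC1 it was -0.82 for MRPL58, -0.68 for MRPS22, -0.66 for MRPL35, -0.66 for MRPS30, -0.64 for MRPL49, -0.61 for MRPL10, -0.60 for MRPL46 and 0.89 for MRPL42. For IRF1 minus MUC1 it was -0.84 for MRPS36, -0.79 for MRPS30, -0.56 for MRPS21, -0.54 for MRPL44, -0.51 for MRPL35, 0.51 for MRPL32, 0.56 for MRPS9 and 0.84 for MRPS35. The cell line, the silenced gene and the DOX treatment cannot be told apart in differences that involve MUC1. The fall of MRPL48 in PBRM1shRNA cells turned to a fold above 0 with median-ratio and quantile scaling. The fall of MRPS9 with DOX did not pass the test with TPM as deposited or with the replicate block.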

How the results depend on the processing

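Scaling moved the most values. In the PBRM1 comparison the main scale called 24 members higher and 23 lower, and the median fold (log2) was 0.02. With TPM as deposited 7 were lower and the median was 0.091, with median-ratio scaling 44 were higher and 9 lower with a median of 0.17, and with quantile scaling 44 were higher and 11 lower with a median of 0.12. In the IRF1 comparison (37 higher, 11 lower, median 0.11) TPM as deposited gave 2 higher, 4 lower and a median of -0.0098, and median-ratio scaling a median of 0.070. In the MUC1 comparison (41 higher, 6 lower, median 0.19) quantile scaling gave a median of 0.15, and each gene's own variance with no prior gave 3 lower. Leaving out 1 library gave 20 to 26 higher, 21 to 24 lower and medians of 0.01 to 0.03 (PBRM1), 31 to 36 higher, 7 to 12 lower and medians of 0.086 to 0.12 (IRF1), and 33 to 42 higher, 4 to 5 lower and medians of 0.17 to 0.21 (MUC1). In the IRF1 comparison 7 members were lower without IRF1shRNA replicate 3 and likewise without control replicate 2.

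The difference of the large to small ratio was 0.0848 (PBRM1), -0.0290 (IRF1) and 0.0104 (MUC1). Geometric means gave 0.00835 (PBRM1) and 0.0297 (MUC1), assignment by structure gave 0.0530 (PBRM1) and -0.0570 (IRF1), and leaving out MRPL51 gave 0.0410 (PBRM1). Without 1 library it ran between 0.0799 and 0.0904 (PBRM1), -0.0439 and -0.0203 (IRF1), and 0.00604 and 0.0151 (MUC1).

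With the replicate block the PBRM1 comparison had 26 members higher and 27 lower, with 6 calls gained and 0 lost. In the other tables same-numbered libraries did not deviate together (r between -0.0442 and 0.0625), and the block lost 3 and gained 3 calls (IRF1) and lost 2 and gained 1 (MUC1). Of 101 effects of named members past the test, 47 kept direction and call under every alternative. Folds that changed sign were, in the PBRM1 comparison, MRPL30 with quantile scaling (0.068), MRPL32 with median-ratio scaling (0.012) and MRPL48 with median-ratio (0.019) and quantile scaling (0.014), and in the IRF1 comparison MRPL49 with TPM as deposited (-0.0092). The cause was not tested.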
